A study of Arabidopsis thaliana with 8 samples.

Results

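The chloroplast-encoded genes were taken as every transcript of the deposited ribosome footprint lists whose identifier starts with ATCG. They were 88 of the 22567 transcripts with at least 1 footprint in these lists, which cover inflorescences of *Arabidopsis thaliana* in 4 genotypes with 2 libraries each. The genotypes were *hot3-2 dcl2 dcl4* (the triple mutant), *hot3-2*, *dcl2 dcl4* (the double mutant) and wild type (WT), all in the Col-0 ecotype. HOT3 is eIF5B1, the GTPase that assists subunit joining on cytosolic ribosomes, and the *hot3-2* allele carries a T-DNA insertion. DCL2 and DCL4 are Dicer-like nucleases that make small interfering RNAs from double-stranded RNA, and the study names their alleles *dcl2-1* and *dcl4-2*. Plants were grown in long days, at 23 °C per the labels and slightly cooler per the study's methods. The labels give somatic cells of inflorescences, a mixture of flower buds, stem and meristem. *hot3-2* and *hot3-2 dcl2 dcl4* libraries are called *hot3-2* carriers, and *dcl2 dcl4* and WT libraries non-carriers. Each line holds 1 RNase I footprint, and levels are given in CPM, the number of P sites on a coding sequence per 1000000 nuclear coding-sequence P sites, after a trimmed-mean scaling over nuclear transcripts.

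The chloroplast keeps a small circular genome of bacterial origin and reads it with its own bacterial-type ribosomes. It encodes core subunits of photosystem II (psb), photosystem I (psa), the cytochrome b6f complex (pet), the ATP synthase (atp) and an NADH dehydrogenase-like complex (ndh), the large subunit of the CO2-fixing enzyme Rubisco (rbcL), and part of the plastid ribosome (rps, rpl) and RNA polymerase (rpo). Nuclear genes encode the remaining subunits, which cytosolic ribosomes make. Cycloheximide, which the study lists in its lysis buffer, arrests cytosolic ribosomes and does not act on plastid ribosomes. No plastid inhibitor is listed for that buffer. In flowers, green sepals and young stems hold chloroplasts, while petals and meristems hold plastids with little photosynthetic apparatus.

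The libraries held 1972841 and 2013952 footprints in the triple mutant, 2672291 and 2132736 in *hot3-2*, 2807433 and 2923825 in the double mutant, and 3588415 and 3552563 in WT. Replicates differed beyond counting error in every genotype, where the chi-square over the members, divided by its degrees of freedom, ran between 4.73 and 10.8. Nothing in the labels says whether replicates came from separate groups of plants, so p-values cover at most the spread between these libraries. In the gene tests the spread of a gene was drawn towards that of all transcripts. An SE and its p-value can therefore be smaller than that gene's own replicates would give. A single open reading frame in the nuclear ribosomal DNA, AT2G01021, took 25.6% and 23.1% of the footprints in the triple mutant, against 10.4% to 16.8% in the other 6 libraries. The files do not pair ATCG identifiers with gene names, and symbols were given by matching coding lengths and order to the RefSeq annotation of the TAIR10.1 chloroplast genome. Of 88 transcripts, 83 were matched and 5 kept their identifier.

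Footprints on chloroplast transcripts were a steady minority of each library. They made up 7.42% (Wilson 95% interval 7.38% to 7.46%) and 7.77% (7.73% to 7.81%) of the footprints in the triple mutant. The share was 6.67% (6.64% to 6.70%) and 6.35% (6.32% to 6.38%) in *hot3-2*. It was 8.31% (8.27% to 8.34%) and 7.91% (7.88% to 7.94%) in the double mutant, and 7.23% (7.21% to 7.26%) and 7.27% (7.24% to 7.30%) in WT. Replicates lay close together, and neither *hot3-2* library overlapped any library of another genotype. These intervals cover counting error only.

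Group means were 7.59% ± 0.247 in the triple mutant, 6.51% ± 0.224 in *hot3-2*, 8.11% ± 0.283 in the double mutant and 7.25% ± 0.0258 in WT (SD, n = 2 each). As a description without a test, the share in *hot3-2* was 0.897 ± 0.0254 times that of WT (SD over 4 library pairs). In the triple mutant it was 0.937 ± 0.0366 times that of *dcl2 dcl4*, and the ratio of carriers to non-carriers was 0.918 ± 0.0944 (16 pairs). *dcl2 dcl4* had 1.12 ± 0.0320 times the share of WT, and the triple mutant had 1.17 ± 0.0452 times that of *hot3-2*. Set against nuclear footprints without AT2G01021, the ratio of the triple mutant to *dcl2 dcl4* turned to 1.07, that of *hot3-2* to WT was 0.907 and that of carriers to non-carriers was 0.995. In bulk tissue, fewer plastids or green cells and fewer footprints per plastid cannot be told apart, and no RNA level was used here.

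**Figure D1:**
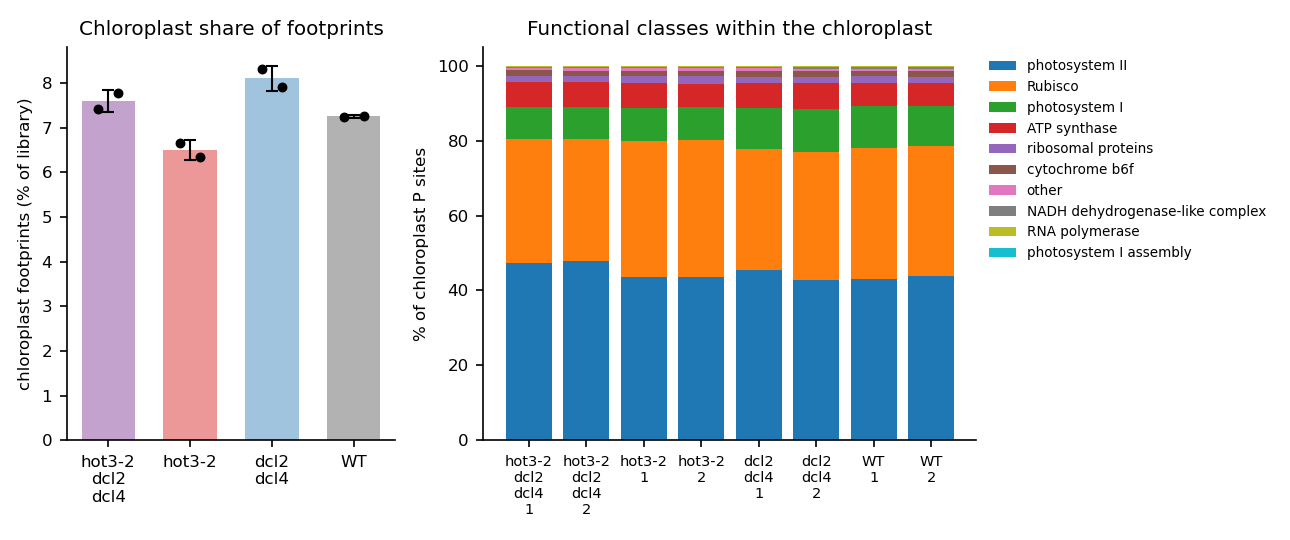
Left, chloroplast footprints as a percentage of all footprints of a library, with bars for the genotype mean, error bars for 1 SD (n = 2) and points for libraries. Right, chloroplast P sites of each library split by functional class (stacked percentages that sum to 100). The *hot3-2* bar is the lowest at 6.51%, and photosystem II and Rubisco fill most of every column.

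A few genes received nearly all chloroplast footprints. rbcL, the Rubisco large subunit, took 34.4% ± 1.58 of the chloroplast P sites, and psbA, the D1 reaction centre protein of photosystem II that is damaged and replaced in the light, took 26.4% ± 1.67 (mean and SD, n = 8). Together they held 60.8%, the leading 10 genes 90.3% and the leading 20 genes 95.6%. Next came the photosystem II core antenna proteins psbC (5.41% ± 0.307) and psbB (5.07% ± 0.638), and the D2 protein psbD (4.76% ± 1.01). The photosystem I reaction centre proteins psaA and psaB had 4.60% ± 0.624 and 3.15% ± 0.474. The ATP synthase subunits beta (atpB) and alpha (atpA) had 2.30% ± 0.0809 and 2.14% ± 0.154, and psaC, which carries the terminal iron-sulfur clusters of photosystem I, had 2.02% ± 0.296. The small photosystem II subunit psbI had 0.735% ± 0.103 and the membrane ring subunit atpH 0.685% ± 0.0884.

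Per length, the order changed. Levels per kb of coding sequence averaged 26035 ± 4623 CPM for psbA and 24724 ± 1983 for rbcL (SD, n = 8), a difference smaller than the spread between libraries. The short genes psaC and psbI followed with 8571 ± 1783 and 6838 ± 919, and then psbD, as long as psbA, with 4690 ± 1313. The median of the 88 members was 152.5 CPM per kb. By class, the median level per kb was 2317 for photosystem II, 1484 for photosystem I and 1388 for the ATP synthase, against 124.6 for ribosomal proteins, 28.8 for the NADH dehydrogenase-like complex and 16.9 for the RNA polymerase. Genes of plastid gene expression and of the NADH complex were thus covered thinly.

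Photosystem II, with 15 members, took 44.7% ± 1.96 of the chloroplast P sites. Photosystem I, with 5, took 9.84% ± 1.31, the 6 ATP synthase genes 6.53% ± 0.176, the 25 transcripts of ribosomal proteins 1.71% ± 0.139 and the 6 cytochrome b6f genes 1.45% ± 0.105. The 14 other transcripts, among them accD of fatty acid synthesis, had 0.754% ± 0.0572. Fewest fell on the 10 ndh transcripts (0.346% ± 0.0730), the 4 rpo genes (0.168% ± 0.0297) and the photosystem I assembly genes ycf3 and ycf4 (0.145% ± 0.0111).

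The share of photosystem I did not overlap between carriers and non-carriers. It was 8.52% and 8.54% in the triple mutant and 8.66% and 8.82% in *hot3-2*, against 10.9% and 11.5% in the double mutant and 11.1% and 10.6% in WT, so all 4 carriers lay below all 4 non-carriers. The ndh share was also lower in each carrier, at 0.281% and 0.263% in the triple mutant and 0.311% and 0.271% in *hot3-2*, against 0.370% and 0.414% in the double mutant and 0.440% and 0.421% in WT. The rpo share was lower in each carrier too, at 0.131% and 0.121% in the triple mutant and 0.167% and 0.160% in *hot3-2*. Non-carriers had 0.200% and 0.192% in the double mutant and 0.175% and 0.199% in WT. In the other classes carriers and non-carriers overlapped. Photosystem II stood at 47.3% and 47.8% in the triple mutant, above the 42.9% to 45.5% of the other 6 libraries. Rubisco was highest in *hot3-2*, at 36.4% and 36.5%, against 32.3% to 35.1% elsewhere. The widest Wilson 95% interval of these class shares spanned 0.528 points. Shares of a fixed total move together, so a lower class share does not by itself give a lower level.

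Chloroplast footprints differed in length from nuclear footprints of the same libraries. Nuclear footprints peaked at 28 nt in all 8 libraries, with 38.5% to 46.4% at that length. Only 6.87% to 8.49% of the chloroplast footprints were 28 nt, a mean difference of -35.1 percentage points (exact permutation test by sign flips over 8 libraries, two-sided p = 0.0078, the smallest this design allows). Chloroplast lengths were broad, with maxima at 24 nt (mean 8.47%), 28 nt (7.81%) and 32 nt (9.72%). Footprints of 30 nt or more were 45.6% and 42.6% of the chloroplast footprints in the triple mutant, 36.3% and 35.3% in *hot3-2*, 45.8% and 42.5% in the double mutant and 41.5% and 44.9% in WT, and 2.27% to 4.96% of nuclear footprints. The *hot3-2* libraries were the only ones whose most frequent length was 24 nt and not 32 nt. The median length was 28 or 29 nt in the chloroplast, so medians did not separate the compartments (difference 0.375 nt, exact permutation p = 0.25).

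**Figure D2:**
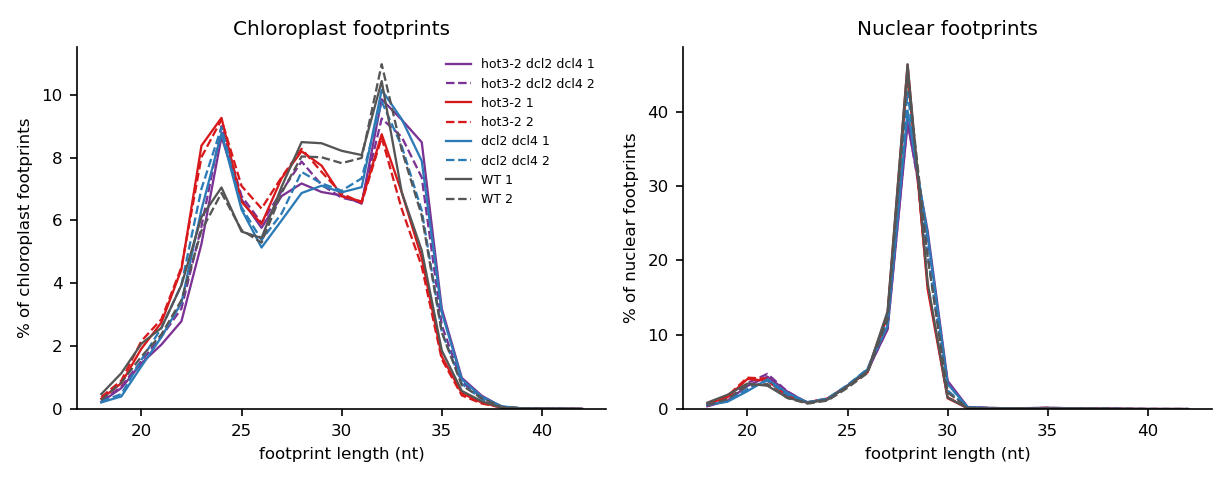
Percentage of footprints at each length in nt, for chloroplast footprints (left) and nuclear footprints (right), 1 line per library with solid lines for replicate 1 and dashed lines for replicate 2. Nuclear lines share 1 sharp peak at 28 nt, and chloroplast lines spread from about 20 to 36 nt with maxima at 24, 28 and 32 nt.

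Length differed between genes as well. Footprints of 30 nt or more made up 58.8% of those on psbA, 47.9% on psaC, 43.5% on atpB, 39.3% on psaA and 38.6% on rbcL (means of 8 libraries). They were 30.4% on psbC, 25.1% on psbI, 21.9% on psbD and 18.3% on atpH. The genes that share a complex did not share a length profile, since psbA and psbD, the D1 and D2 proteins of 1 reaction centre, lay near opposite ends of this range. A count at 28 nt only therefore weights genes differently.

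Reading frame was taken first from the deposited P sites. Frame 0 held 28.1% to 48.3% of chloroplast P sites and 70.2% to 73.3% of nuclear ones, a difference of -31.8 points (exact permutation test by sign flips, two-sided p = 0.0078). In 28 nt footprints it held 65.5% to 72.7% of chloroplast P sites, against 86.7% to 89.1% of nuclear ones. The deposited offset of the P site from the 5′ end was 12 nt for 28 nt footprints in all libraries, but for 24 nt footprints it was 8, 9 or 12 nt depending on the library. Frame shares over all lengths are therefore not comparable between libraries.

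Measured from the other end, chloroplast footprints of 27 nt or more lay mostly in 1 frame. A 3′ end was called phase 0 where the nucleotide 15 nt upstream of it is the first of a codon, which is where the deposited P site of a 28 nt footprint lies when it is in frame. This measure was chosen after the data were seen. Among footprints of 30 to 36 nt, 75.6% to 79.9% of chloroplast 3′ ends were in phase 0, against 14.03% to 19.1% of nuclear ones, a difference of 61.5 points (exact permutation test by sign flips, two-sided p = 0.0078). Most nuclear footprints of these lengths were 30 nt long. At 30 nt, 79.9% to 82.9% of nuclear 3′ ends were in phase 1, where the nucleotide 15 nt upstream is the second of a codon. Nuclear ends at 30 nt thus also lay mostly in 1 frame. Chloroplast phase 0 means stood between 64.0% and 87.7% at each length from 27 to 37 nt, highest at 34 nt, and between 50.9% and 57.2% from 23 to 26 nt. In WT phase 0 held 49.7% and 46.6% at 23 nt and 44.1% and 45.8% at 25 nt. At 20, 21 and 22 nt the means were 30.9%, 24.6% and 21.3%. Over all lengths together, where nuclear footprints are mostly near 28 nt, the difference was -2.98 points (exact permutation p = 0.0859).

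**Figure D3:**
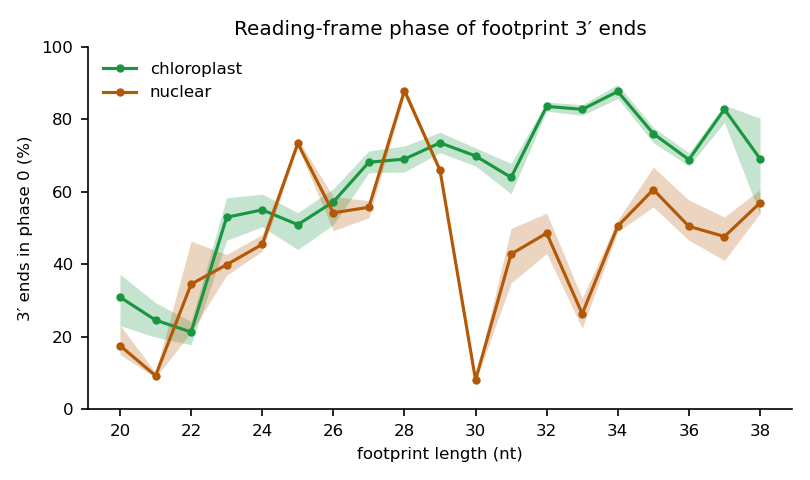
Percentage of footprint 3′ ends in phase 0 against footprint length in nt, with lines for the mean of 8 libraries and bands from the lowest to the highest library. The chloroplast line stays between 64.0% and 87.7% from 27 to 37 nt, while the nuclear line peaks at 28 nt with 87.96% and falls to 8.06% at 30 nt. At 30 nt most nuclear 3′ ends were in phase 1.

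Start and stop codons of chloroplast genes could not be assessed. Chloroplast transcripts in the files begin at the first nucleotide of the start codon and end with the stop codon, so a footprint centred on either has no room. No P site lay on a chloroplast start codon or stop codon in any library. The first P site lay 6 to 11 nt after the first nucleotide of the start codon, and the last one 6 to 10 nt before the stop codon. Only 0.0351% to 0.0492% of chloroplast footprints began at the first nucleotide, and 0.0102% to 0.0314% ended at the last one. In genes of at least 300 nt with at least 50 P sites per library on average, codons 25 to 49 had a median density of 0.545 to 0.996 times the gene mean over the 8 libraries, and codons 21 to 50 before the end 0.70 to 0.969 times. Codons 10 to 24 had 0.417 to 0.715 times the gene mean, and codons 6 to 20 before the end 0.364 to 0.695 times. Closer to either end a footprint has no room on these transcripts, and codons 2 to 9 had at most 0.0295 times.

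Within genes, footprints piled up at single 3′ ends. Of 70 genes with at least 50 footprints per library on average, the most frequent 3′ end held a median of 14.7% of the footprints of its gene (range 2.93% to 64.7%). It exceeded 10% in 49 genes and 20% in 25, and it was in phase 0 in 57. The leading 3′ end fell at nucleotide 961 of psbA (codon 316 of 354 marked, 35.0% of its footprints), 229 of rbcL (codon 72 of 480, 13.9%), 421 of psbD (codon 136 of 354, 24.3%) and 163 of psaC (codon 50 of 82, 60.7%). Among short genes, it held 64.7% on petG, a small cytochrome b6f subunit (codon 32 of 38), and 37.2% on psbH of photosystem II (codon 14 of 74). At the psbA site 98.5% of footprints were 30 nt or longer, and at the psbD site 1.53%. The most frequent length differed between them, at 34 nt for the psbA site and 24 nt for the psbD site.

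The footprints below are the most frequent ones at these leading ends, shown because a single position carries so much of each gene. They are given 5′ to 3′ from the RefSeq TAIR10.1 chloroplast genome, with the marked codon in capitals. All lie inside coding exons. The positions are Pltd:484-517 on the minus strand for psbA, Pltd:55161-55186 on the plus strand for rbcL, Pltd:33108-33131 on the plus strand for psbD, Pltd:117401-117429 on the minus strand for psaC, Pltd:74516-74539 on the plus strand for psbH and Pltd:66084-66106 on the plus strand for petG. Each sequence occurred once in the chloroplast genome and not in the nuclear or mitochondrial genome.
psbA: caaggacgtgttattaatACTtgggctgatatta
rbcL: tgtgtggaccGATgggcttaccagcc
psbD: ttgctcgaTCTgttcaattgcgac
psaC: cgaggactgtgttGGTtgtaagagatgtg
psbH: gatctggtCCAagaagcactactg
petG: cagacgtGGTgatcagttggact

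The share at the leading end did not overlap between groups of libraries in 3 of the 10 most covered genes. Only these 10 of the 70 genes were compared, so how common such a separation is over all genes was not counted. None of the differences passed a correction over all tests, which so few at the smallest p allowed could not pass. On rbcL it was 16.0% and 15.7% in the triple mutant and 16.3% and 18.5% in *hot3-2*, against 11.9% and 12.2% in the double mutant and 11.6% and 13.04% in WT. Carriers and non-carriers did not overlap, and the difference was 4.43 points (exact permutation test over 70 assignments, two-sided p = 0.0286, the smallest it allows). Among footprints of 30 nt or more it was 3.36 points (exact permutation p = 0.0286). On psbD the leading end held 24.7% and 23.1% in the triple mutant and 30.5% and 29.2% in *hot3-2*, against 21.9% and 22.7% in the double mutant and 21.2% and 21.9% in WT. That difference of 4.93 points (exact permutation p = 0.0286) was 0.532 points among footprints of 30 nt or more (exact permutation p = 0.114).

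The psbA site followed the other genotype factor. It held 40.8% and 37.3% of the psbA footprints in the triple mutant and 41.5% and 37.4% in the double mutant, against 31.5% and 29.1% in *hot3-2* and 29.9% and 31.9% in WT. The 4 libraries with *dcl2 dcl4* did not overlap the other 4 and exceeded them by 8.67 points (exact permutation test, two-sided p = 0.0286), and by 6.91 points among footprints of 30 nt or more. On psaC the groups overlapped, with 64.3% and 55.9% in the triple mutant, 64.5% and 65.3% in *hot3-2*, 60.3% and 61.7% in the double mutant and 57.3% and 59.4% in WT. Over the 20 tests of 10 genes and 2 factors, the adjusted p of the rbcL, psbD and psbA differences was 0.19 each (Benjamini-Hochberg over exact permutation tests), so none passed. With no exact permutation p below 0.0286, so few separations among 20 tests could not pass, and the correction does not decide on them. The widest Wilson 95% interval of these library shares spanned 3.87 points, on psaC. Nuclear footprints of 30 nt or more were 3.36% to 4.96% in the libraries with *dcl2 dcl4* and 2.27% to 3.01% in the others. Library differences in the lengths recovered were thus present as well, and their part in the psbA and rbcL differences was not tested beyond the long footprints.

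**Figure D4:**
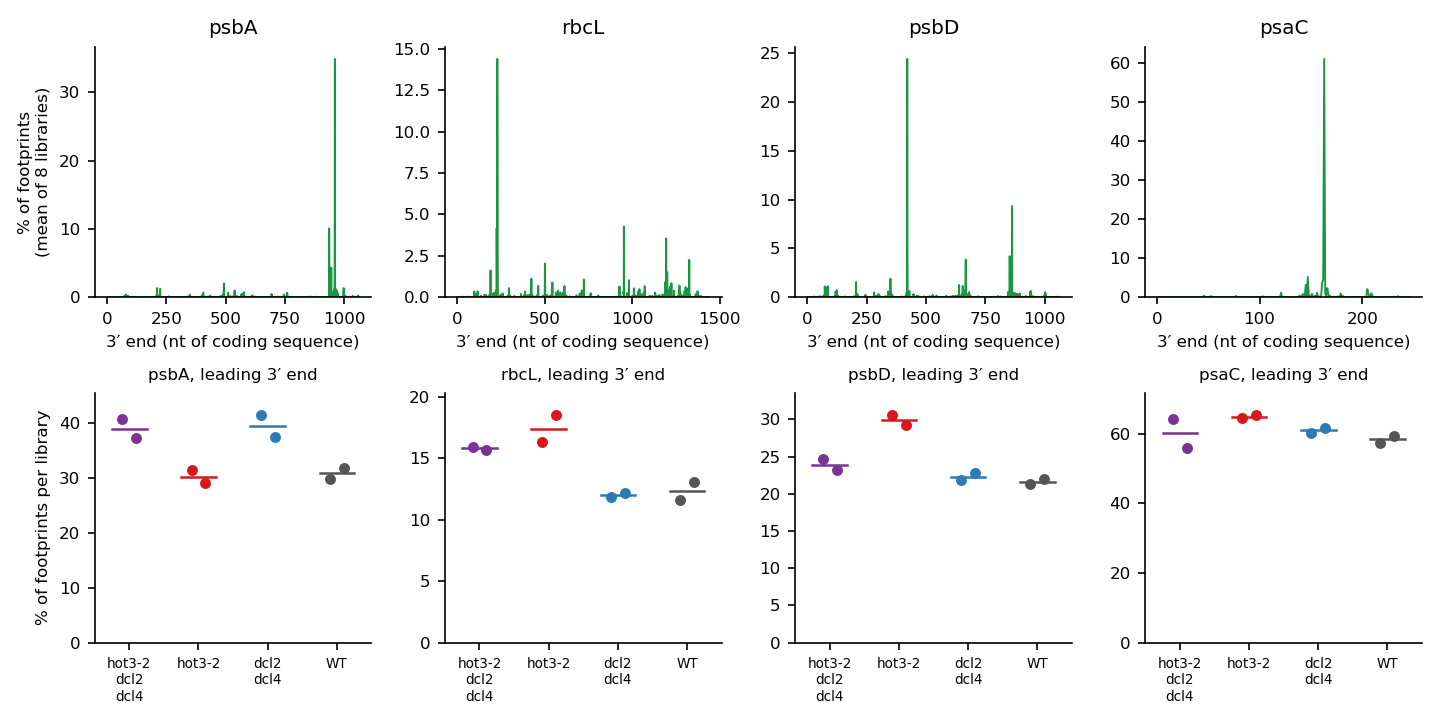
Top, percentage of the footprints of psbA, rbcL, psbD and psaC whose 3′ end falls at each nucleotide of the coding sequence, mean of 8 libraries. Bottom, percentage at the leading 3′ end in each library (points) with the genotype mean (line), from the triple mutant to WT. Each gene has 1 dominant end, and the psbA points of both genotypes with *dcl2 dcl4* lie above those of *hot3-2* and WT.

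Levels were then compared between genotypes, to ask how chloroplast footprint counts differ when the cytosolic factor eIF5B1 is disrupted. No RNA level was used, so these counts do not separate translation per RNA from RNA level or plastid number. Tests were made with limma voom on all 13414 transcripts that passed a filter on low counts, with Benjamini-Hochberg adjustment over all of them. Of the 88 members 85 passed, and rps16, ATCG00870 and ATCG01270 did not.

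In *hot3-2* against WT, 9 of 85 members were higher (10.6%, against 7.18% of all transcripts) and 16 were lower (18.8%, against 7.38% of all). The median log2 fold change was -0.06 over members and -0.01 over all transcripts. The members that fell included the photosystem I reaction centre and the CP47 antenna of photosystem II, and psbD was the most significant of those that rose. psaA had 3559 and 3564 CPM in *hot3-2*, against 4923 and 5238 in WT (log2 fold change -0.51 ± 0.04 SE, adjusted p = 6e-18). psaB had 2457 and 2524 in *hot3-2*, against 3576 and 3358 in WT (-0.48 ± 0.04, adjusted p = 3.5e-14). psbB had 4041 and 3908 in *hot3-2*, against 5403 and 5809 in WT (-0.49 ± 0.04, adjusted p = 3.8e-18). In all 3 genes replicates lay close together and the groups were far apart.

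psbD had 4869 and 4575 CPM in *hot3-2*, against 3344 and 3805 in WT (log2 fold change 0.41 ± 0.04 SE, adjusted p = 1.9e-12). Without footprints at its leading 3′ end the change was 0.26, and in footprints of 30 nt or more it was 0.06 and not called, while short footprints were more frequent in *hot3-2* (26 nt or less, 40.4% and 41.5% of chloroplast footprints, against 34.5% and 32.2% in WT). psbA, by contrast, was lower by a small step, at 22418 and 22133 in *hot3-2*, against 23947 and 26304 in WT (-0.17 ± 0.03, adjusted p = 1.5e-05). rbcL was lower by a smaller step, with 32456 and 32124 in *hot3-2*, against 32889 and 35135 in WT (-0.07 ± 0.01, adjusted p = 0.00014). The WT replicates of rbcL lay further apart than the group means. In footprints of 26 nt or less psbA turned to 0.034 and rbcL to 0.31. psbC (-0.21, adjusted p = 7.5e-05) and psaC (-0.26, adjusted p = 0.00046) were also lower, and psbC was not called without replicate 1 of *hot3-2* (-0.15). The proton channel subunit atpI fell (-0.62 ± 0.10, adjusted p = 2.1e-06) and was -0.28 and not called without its leading end. In 28 nt footprints psaC turned to 0.10 and atpI to 0.065.

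Among ribosomal proteins, 3 of 24 tested were higher in *hot3-2* against WT (against 7.18% of all transcripts) and 1 was lower (against 7.38%). rps18 had 250.5 and 216.6 in *hot3-2*, against 144.5 and 146.4 in WT (log2 fold change 0.69 ± 0.12 SE, adjusted p = 1.2e-05), and in footprints of 30 nt or more it was 0.17 and not called. psbH of photosystem II was called higher (0.45, adjusted p = 1e-04), but at -0.04 without its leading end and -0.19 in 28 nt footprints its direction turned.

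The NADH dehydrogenase-like complex had the lowest class median, -0.88 over 10 tested members, with 5 lower and 0 higher. Over all transcripts 7.38% were lower and 7.18% higher, which holds for the other class counts here as well. The 5 lower ndh members were ndhJ, ndhK, ndhA, ndhD and ndhF, named after their values were seen. ndhD, the most covered of them, had 144.8 and 121.6 in *hot3-2*, against 175.2 and 189.3 in WT (log2 fold change -0.44 ± 0.14 SE, adjusted p = 0.016). ndhJ had 6.51 and 3.90 in *hot3-2*, against 34.3 and 21.9 in WT (-2.33 ± 0.54, adjusted p = 0.00088). The class rested on few P sites, with 554 and 367 over all ndh transcripts in *hot3-2*, against 1141 and 1087 in WT. In photosystem I 3 of 5 were lower and 0 higher, and in photosystem II 5 of 15 were higher and 3 lower. In the ATP synthase and cytochrome b6f classes 1 of 6 was lower each, and of the 4 rpo genes 0 were called.

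The same mutation in the *dcl2 dcl4* background was tested in the triple mutant against *dcl2 dcl4*. There 14 of 85 members were higher (16.5%, against 4.2% of all transcripts) and 9 lower (10.6%, against 4.97% of all), with a median of 0.05 over members. psbD had 7004 and 7166 in the triple mutant, against 4775 and 4308 in the double mutant (log2 fold change 0.65 ± 0.04 SE, adjusted p = 9.2e-21), and 0.56 without its leading end. psaA had 4590 and 4958 in the triple mutant, against 5723 and 5747 in the double mutant (-0.26 ± 0.04, adjusted p = 6.4e-07). psaB had 3184 and 3089 in the triple mutant, against 3971 and 4010 in the double mutant (-0.35 ± 0.05, adjusted p = 2.5e-08). psaC had 2252 and 1894 in the triple mutant, against 2743 and 2732 in the double mutant (-0.41 ± 0.06, adjusted p = 1.4e-07), and turned to 0.071 in 28 nt footprints. psbB had 5237 and 5353 in the triple mutant, against 6224 and 6205 in the double mutant (-0.23 ± 0.04, adjusted p = 4.9e-06). Each of these genes had non-overlapping groups.

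psbA, in contrast to its change between *hot3-2* and WT, was higher, at 34373 and 33397 in the triple mutant, against 31724 and 26900 in the double mutant (0.22 ± 0.03 SE, adjusted p = 5.3e-08). Replicates of the double mutant lay further apart on psbA than the group means. rbcL was called higher at 0.06 (adjusted p = 0.0031), and was not called without replicate 1 of either genotype (0.05 to 0.06), and at -0.018 without its leading end. Higher members also included atpH (963.1 and 929.4 in the triple mutant, against 688.8 and 668.6 in the double mutant, log2 fold change 0.48) and the small photosystem II subunit psbJ (680.2 and 704.5 in the triple mutant, against 477.2 and 494.9 in the double mutant, 0.51). psbM was called at 1.75 with 97.3 and 35.3 in the triple mutant, against 18.7 and 15.6 in the double mutant, and lost its call without replicate 1 of the triple mutant (1.05). The ndh genes had a median of -0.35 with 1 of 10 lower (against 4.97% of all transcripts), ndhF (-1.11, adjusted p = 0.00034). Of the rpo genes 2 of 4 were lower, rpoA (-1.48) and rpoC2 (-0.70), both named after their values were seen.

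The 23 calls of this contrast fell to 15 without replicate 1 of *dcl2 dcl4* and to 12 without replicate 1 of the triple mutant. In both backgrounds the carriers had lower psaA, psaB, psaC and psbB and higher psbD and rps18. The comparisons share no library.

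**Figure D5:**
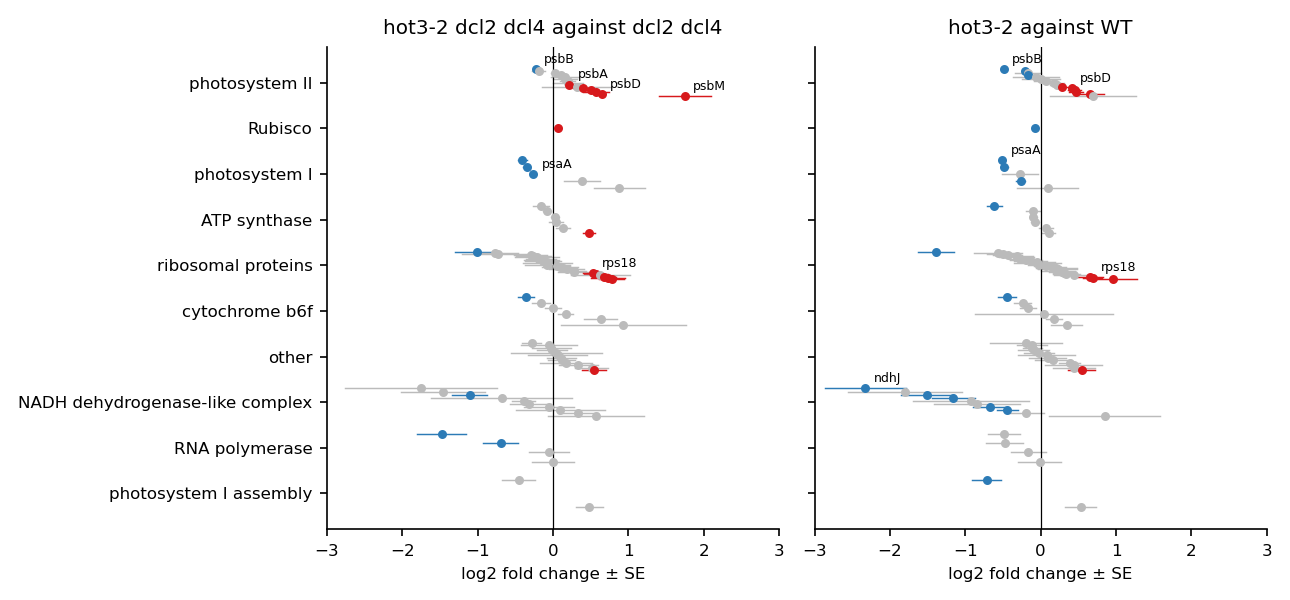
Log2 fold change ± SE of the 85 tested chloroplast genes, grouped by functional class, for the triple mutant against *dcl2 dcl4* (left) and *hot3-2* against WT (right). Red points were called higher, blue points lower and grey points not called, with psaA to the left of 0 and psbD to the right in both panels.

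Scaling decides how these counts split. With library sizes set by the chloroplast P sites themselves, the median over all transcripts moved by 0.13 in *hot3-2* against WT, -0.08 in the triple mutant against *dcl2 dcl4*, -0.21 in the double mutant against WT and -0.42 in the triple mutant against *hot3-2*. On that scale 14 members were higher and 9 lower in *hot3-2* against WT, and 9 were higher and 10 lower in the triple mutant against *dcl2 dcl4*. The share of all transcripts called on that scale was not counted, here or in the contrasts below. Shares given for the main scale do not apply to it. The directions of psaA, psaB, psbB and psbD in both contrasts stayed as given, and rbcL turned to 0.06 in *hot3-2* against WT and -0.01 in the triple mutant against *dcl2 dcl4*.

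*dcl2 dcl4* was compared with WT to see the background on its own. Of 85 members 32 were higher (37.6%, against 2.46% of all transcripts) and 0 lower (0%, against 3.14% of all), with a median of 0.21 over members and 0.00 over all. By an unadjusted p under 0.05, 40 members were higher (against 7.98% of all transcripts) and 5 lower (against 9.17%). Photosystem II gave 11 of 15, the ATP synthase 4 of 6, photosystem I and cytochrome b6f 3 each and ribosomal proteins 5 of 24. psaC had 2743 and 2732 in the double mutant, against 1875 and 2085 in WT (log2 fold change 0.47 ± 0.05 SE, adjusted p = 3.1e-11). psbD had 4775 and 4308 in the double mutant, against 3344 and 3805 in WT (0.35 ± 0.04, adjusted p = 1.6e-09). psbH had 693.2 and 696.9 in the double mutant, against 388.7 and 475.5 in WT (0.70 ± 0.09, adjusted p = 3.3e-09), and petG had 506.2 and 518.1 in the double mutant, against 303.8 and 340.0 in WT (0.67 ± 0.09, adjusted p = 1.1e-07).

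rbcL was higher by 0.13 ± 0.01 (adjusted p = 7.7e-11) and psbA by 0.22 ± 0.03 (adjusted p = 9.4e-10) in the double mutant against WT. For psbA the double mutant replicates lay further apart than the group means. Without the footprints at its leading 3′ end psbA was at -0.03. atpA (0.41), psbI (0.48), atpF (0.54) and petD (0.57) were also higher. Without leading ends atpA was at 0.16 and psbH at 0.14, neither of them called. The count of 32 was 18 without replicate 1 of WT and 15 without replicate 1 of *dcl2 dcl4*. With chloroplast library sizes 13 members were higher and 6 lower, and rbcL was at -0.07.

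The triple mutant against *hot3-2* gave 25 of 85 members higher (29.4%, against 0.723% of all transcripts) and 0 lower (0%, against 1.31% of all), with a median of 0.35 over members. By an unadjusted p under 0.05, 37 were higher (against 4.86% of all transcripts) and 0 lower (against 6.25%). All 6 ATP synthase genes, 4 of 5 of photosystem I and 9 of 15 of photosystem II were higher. psbA had 34373 and 33397 in the triple mutant, against 22418 and 22133 in *hot3-2* (log2 fold change 0.60 ± 0.03 SE, adjusted p = 1.2e-23). rbcL had 39398 and 38425 in the triple mutant, against 32456 and 32124 in *hot3-2* (0.27 ± 0.02, adjusted p = 1.2e-21). psbD (0.58), psbB (0.41), psaA (0.42), psbC (0.39) and petB of cytochrome b6f (0.81) were higher too. With chloroplast library sizes 5 members were higher and 4 lower, and rbcL (-0.15), psaB (-0.079), psaC (-0.087), psbB (-0.00100), psbC (-0.025), atpA (-0.011) and atpB (-0.089) turned.

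The effect of *hot3-2* differed between backgrounds in 10 of 85 members, 9 of them higher in the *dcl2 dcl4* background (10.6%, against 0.365% of all transcripts) and 1 lower (1.18%, against 0.835% of all). psbA differed most clearly, by 0.38 ± 0.04 on the log2 scale (adjusted p = 5.7e-10), followed by rbcL (0.14 ± 0.02, adjusted p = 1.4e-05) and psbB (0.26 ± 0.05, adjusted p = 0.0015). The count was 5 without replicate 1 of *hot3-2*, 4 without replicate 1 of *dcl2 dcl4*, 6 without its replicate 2 and 5 without replicate 1 of the triple mutant. In footprints of 26 nt or less it was 4, all lower, and 0 of the 10 kept call and direction. There rbcL turned to -0.27 and was called (adjusted p = 1.7e-09), psbB turned to -0.19 (adjusted p = 0.33), and psbA was at 0.12 and not called. With chloroplast library sizes 2 were higher and 5 lower, and rbcL turned to -0.072 (adjusted p = 0.31).

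Nuclear genes whose products join the same complexes were described from a list of 20. In *hot3-2* against WT 2 were higher, the photosystem I subunit PSAL (log2 fold change 0.44 ± 0.06 SE, adjusted p = 3.2e-09) and the oxygen-evolving protein PSBO1 (0.14 ± 0.04, adjusted p = 0.0083), and 17 were lower, with a list median of -0.66. Over all transcripts 7.18% were higher and 7.38% lower in that contrast. In the triple mutant against *dcl2 dcl4* PSAL was higher (0.86 ± 0.06, adjusted p = 2.4e-20) and 12 of 20 were lower, with a median of -0.30. There 4.2% of all transcripts were higher and 4.97% lower. In *dcl2 dcl4* against WT 3 were higher (against 2.46% of all transcripts) and 3 lower (against 3.14%), with a median of 0.08. Of 10 tested factors of plastid transcription and translation, 1 was higher and 4 lower in *hot3-2* against WT (median -0.08), and 0 were higher and 4 lower in the triple mutant against *dcl2 dcl4* (median -0.43). The summed level of the list of 20 was 27092 to 30389 CPM in carriers and 31204 to 36589 in non-carriers. That of the listed factors was 2931 to 3311 in carriers and 3548 to 4548 in non-carriers.

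Of the marker lists, the tapetum and anther sum and the floral organ sum were lower in every carrier than in every non-carrier. The green tissue sums of *hot3-2* overlapped those of non-carriers. All 6 tapetum and anther genes were detected in every library, and their summed level was 704 and 699 CPM in the triple mutant, 645 and 601 in *hot3-2*, 1098 and 1170 in the double mutant and 1209 and 1211 in WT, with 4 of 6 lower in each carrier contrast. The 6 green tissue genes, nuclear genes of photosynthesis that partly repeat the list of 20, summed to 19608 and 17520 in the triple mutant, 21393 and 23162 in *hot3-2*, 20065 and 20914 in the double mutant and 26151 and 22397 in WT. Of these, 1 was higher and 5 were lower in *hot3-2* against WT, and 3 were lower in the triple mutant against *dcl2 dcl4*. The floral organ sum, from 3 of 5 listed genes, was 452 and 478 CPM in the triple mutant and 478 and 519 in *hot3-2*. It was 623 and 666 in the double mutant and 652 and 589 in WT. Of 3 tested floral organ genes 1 and 2 were lower in these contrasts, and the meristem gene STM was not called. Over all transcripts 7.18% were higher and 7.38% lower in *hot3-2* against WT, and 4.97% lower in the triple mutant against *dcl2 dcl4*. The part of tissue makeup in the chloroplast differences was not tested.

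Several genes could not be separated from copies or neighbours. psbD and psbC, and atpB and atpE, overlap in the genome, so footprints in the overlap may count for either. Transcripts of the inverted repeat (rpl2, rpl23, rps7, rps12, ycf2, part of ycf1 and 2 pairs of others) have near-identical second copies, and their counts depend on how the authors placed reads that match both. Copies of plastid DNA outside the plastid also share sequence: of all 28 nt windows, 17.7% of psbA, 22.9% of rbcL and 24.9% of atpI, against 1.35% of psbD and 0% of psaC and psbC, were also found in the nuclear genome.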

How the data were processed

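Ribosome footprints of 8 inflorescence libraries were used, 2 per genotype. Per the labels and methods, the authors trimmed reads with cutadapt, mapped them with STAR to TAIR10 and assigned a P site to each footprint by an offset that depends on its length. The deposited files hold 1 line per footprint, with its transcript and positions and no count column, and are not normalised by the authors. Settings for reads that match several positions are stated for the RNA-seq reads only, and for footprints they are not given in the sources used here.

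P sites on coding sequences were tallied per transcript. Counts were tested with limma 3.58.1 (voom, R 4.3.3) with 1 coefficient per genotype over all 8 libraries, library sizes scaled by a trimmed mean (30% by fold change, 5% by abundance) over nuclear transcripts, and Benjamini-Hochberg adjustment over all transcripts. A call needs an adjusted p under 0.05. The filter asked for 10 counts at the depth of the median library in 2 libraries, and 15 over all libraries. The code was tested on simulated data. Shares and positions were compared by exact permutation tests (Python 3.11.15, scipy 1.17.1). Planned start and stop codon shares could not be computed, because these transcripts carry no untranslated sequence.

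ATCG identifiers were matched to the RefSeq annotation by coding length in 57 transcripts, by length and position in 21, by exon length in 2 and by position alone in 3 (matK, ycf3 and ndhD). Named genes were the 12 with the highest share, up to 10 with the smallest adjusted p in each contrast and the highest of each class, and others are said to be chosen after their values were seen or are given as list or complex members. Members and lists were chosen with earlier results of these data known. Alternatives were another normalisation, chloroplast library sizes, no filter, 28 nt footprints, all lines of a transcript, a replicate block and leaving out each library, and, chosen after seeing the data, long footprints, short footprints and removal of the leading 3′ end within 3 nt. The result of 1 gene that the rule names is not reported here.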

Additional observations from a re-analysis of the deposited data

Results flagged for a closer look

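The effect of *hot3-2* differed between the *dcl2 dcl4* background (the double mutant and the triple mutant, *hot3-2 dcl2 dcl4*) and the background with intact *DCL2* and *DCL4* in 10 chloroplast genes, by the interaction term of the limma voom fit. The value is the log2 fold change of the triple mutant against *dcl2 dcl4* minus that of *hot3-2* against WT. It was 0.38 for psbA, 0.14 for rbcL and 0.26 for psbB, and these 3 stayed called when any single library was left out. In footprints of 26 nt or less, however, rbcL turned to -0.27 and was called in that direction (adjusted p = 1.7e-09), psbB turned to -0.19 and psbA was at 0.12, both not called, and with chloroplast library sizes rbcL turned to -0.072. It was 0.25 for psaA, 0.23 for psbD and 0.23 for psbC. The small photosystem II subunits psbI and psbM had -0.47 and 1.81, and the ribosomal protein transcripts rps14 and rps12 (ATCG00905) had 0.84 and 0.80. These 7 lost their call without 1 or more of the libraries, and psbM ranged down to 1.11 without replicate 1 of the triple mutant. rps14 had 159.7 and 159.4 CPM in the triple mutant and 108.7 and 111.9 in *hot3-2*, against 112.4 and 102.7 in the double mutant and 135.1 and 131.2 in WT. The rps12 transcript has a near-identical copy in the inverted repeat, ATCG01230, which was tested and not called in the interaction.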

How the results depend on the processing

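With 2 libraries per genotype, calls on thinly covered genes depended on the footprints counted. Of the gene results, median-of-ratios size factors and the replicate block changed 0 of 62 calls. In 28 nt footprints 9 members were called in *hot3-2* against WT, 7 in the double mutant against WT, 4 in the triple mutant against *dcl2 dcl4*, 13 in the triple mutant against *hot3-2* and 2 in the interaction, with far fewer footprints. In footprints of 30 nt or more 12 were called in the double mutant against WT and 15 in the triple mutant against *dcl2 dcl4*. In footprints of 26 nt or less 11 were called in the triple mutant against *dcl2 dcl4*, 7 in the triple mutant against *hot3-2* and 4 in the interaction. Without a filter 15 were called in the triple mutant against *dcl2 dcl4* and 2 in the interaction, which had 4 without leading 3′ ends. With chloroplast library sizes 19 were called in the double mutant against WT and 9 in the triple mutant against *hot3-2*. Leaving out 1 library gave 18 to 25 calls in *hot3-2* against WT, 15 to 34 in the double mutant against WT, 12 to 24 in the triple mutant against *dcl2 dcl4*, 17 to 26 in the triple mutant against *hot3-2* and 4 to 10 in the interaction. The share of all transcripts called under these alternatives was not counted. Except where an alternative itself uses fewer footprints or genes, the cause was not tested.

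Directions turned as follows. In *hot3-2* against WT, 28 nt footprints gave atpI 0.065, psbH -0.19 and psaC 0.10, short footprints psbA 0.034 and rbcL 0.31, chloroplast library sizes rbcL 0.059, and removal of leading ends psbH -0.042. In *dcl2 dcl4* against WT, chloroplast library sizes gave rbcL -0.073, psaA -0.027, psbB -0.053 and psbC -0.045, and psbA was -0.080 in 28 nt footprints and -0.027 without leading ends. In the triple mutant against *dcl2 dcl4*, psaC was 0.071 in 28 nt footprints, and rbcL was -0.014 with chloroplast library sizes and -0.018 without leading ends. In the triple mutant against *hot3-2*, chloroplast library sizes gave rbcL -0.15, psbB -0.00100, psbC -0.025, atpA -0.011, psaB -0.079, atpB -0.089 and psaC -0.087. In the interaction rbcL was -0.072 with chloroplast library sizes, and short footprints gave rbcL -0.27, psbB -0.19 and psaA -0.074.

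The share of carriers over non-carriers was 1.05 in 28 nt footprints. The share of the triple mutant over *dcl2 dcl4* was 1.19 in 28 nt footprints and 1.07 against nuclear footprints without AT2G01021. Over *hot3-2* it was 1.44, 1.35 and, without the transcript with the most footprints, 1.23. Leaving out 1 library gave 0.887 to 0.949 for carriers over non-carriers, 0.914 to 0.960 for the triple mutant over *dcl2 dcl4* and 1.14 to 1.196 over *hot3-2*. The length difference turned to 0.375 nt when medians were compared, and the 3′ end phase difference to -2.98 points over all lengths.

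Same-numbered libraries did not deviate together (r from -0.018 to 0.012 over genes), so the numbers do not pair them. With the replicate block 26 members were called in *hot3-2* against WT, 33 in the double mutant against WT, 23 in the triple mutant against *dcl2 dcl4*, 27 in the triple mutant against *hot3-2* and 10 in the interaction. No paired analysis was possible for start and stop codon shares because they have no value, nor were their other alternatives run.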
